A study of Zea mays with 6 samples.

Results

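The circadian clock genes described here are 7 maize genes, *cca1*, *lhy1*, *toc1*, *gigantea1*, *gigantea2*, *elf3.1*, and *elf3.2*, chosen by gene identifier from the 45578 entries of the expression files. All 7 were found. The samples were aerial tissues of F1 hybrid seedlings (B73×Mo17) harvested 14 d after sowing, and daily growth conditions were 28 °C during 16 h of light followed by 25 °C during 8 h of darkness. The 6 libraries comprised 2 biological replicates each of input RNA-seq (polyadenylated RNA, referred to as mRNA), m6A-seq (RNA pulled down with an antibody against the modified base N6-methyladenosine), and polysome profiling (RNA from the ribosome-loaded fractions of a sucrose gradient). All libraries came from the same genotype, age, and growth conditions. No library of a parental line was analysed here. The clock time of the harvest is not given in the sources used here. The levels below are therefore those of 1 unspecified point of the day. In bulk aerial tissue, fewer cells expressing a gene and less RNA per cell cannot be told apart.

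The plant circadian clock is a network of genes that repress one another over the day and keep daily rhythms of growth, photosynthesis, and flowering. In Arabidopsis, CCA1 and LHY are related MYB-type transcription factors that peak at dawn and repress evening genes, and TOC1 is a pseudo-response regulator that peaks in the evening and represses *CCA1* and *LHY*. GIGANTEA is an evening protein that stabilizes an F-box protein acting on TOC1 and promotes flowering, and ELF3 is the scaffold of the evening complex, a night-time repressor. Maize carries duplicate copies of several of these genes. In the following, *cca1* and *lhy1* are termed the morning genes and the other 5 the evening genes. The symbols were given with the identifiers when the genes were chosen, and no file used here ties them to the identifiers.

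Expression was deposited as FPKM, which divide the fragments of a gene by its transcript length and by the fragments of the library, so that levels of different genes are per length. Between 28460 and 29535 entries had an FPKM above 0 in a library, and the median ratio of mean polysome to mean mRNA FPKM was 0.845 over the 19871 entries whose mean mRNA FPKM reached 1 (expressed genes). Short non-coding entries (ENSRNA identifiers) made up 59.6 and 58.9% of the summed FPKM in the mRNA libraries and 24.6 and 25.9% in the polysome libraries. This difference in composition moves the polysome to mRNA ratio of every gene by the same factor, and ratios between 2 genes of a library do not depend on it. Reads of both parental alleles were mapped to the B73 genome, so that FPKM values do not separate the alleles. How reads shared between similar duplicate copies were counted is not given in the sources used here.

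The *gigantea* genes were the most abundant clock transcripts in the mRNA libraries. *gigantea1* (*Zm00001d008826*, chromosome 8 from 21787238 to 21795721, minus strand) had an mRNA FPKM of 68.3 in replicate 1 and 67.2 in replicate 2, a mean of 67.7 ± 0.764 (SD, n = 2), which was above 95.6% of the expressed genes. *gigantea2* (*Zm00001d039589*, chromosome 3 from 8521898 to 8533430, plus strand) followed with 21.2 and 22.5 FPKM, a mean of 21.8 ± 0.925 (SD, n = 2). Both were clearly separated from the other members, since none of the remaining 5 clock genes reached the lower of the *gigantea2* values in an mRNA library.

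The remaining evening genes lay close together. *toc1* (*Zm00001d017241*, chromosome 5 from 190060998 to 190063941, plus strand) had 15.6 and 11.3 FPKM in the mRNA libraries. *elf3.2* (*Zm00001d039156*, chromosome 6 from 171181094 to 171184464, minus strand) had 11.9 and 12.5 FPKM, and *elf3.1* (*Zm00001d044232*, chromosome 3 from 222542813 to 222548835, minus strand) had 8.18 and 9.06 FPKM. The 2 *elf3* copies did not overlap in these libraries, whereas the range of *toc1* took in both values of *elf3.2*.

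The morning genes differed from each other by more than their replicates did. *cca1* (*Zm00001d024546*, chromosome 10 from 77700138 to 77703390, minus strand) had 8.61 and 12.3 FPKM in the mRNA libraries. *lhy1* (*Zm00001d049543*, chromosome 4 from 34070590 to 34104400, plus strand), whose annotated span of 33811 bp was by far the longest, had 1.78 and 2.82 FPKM. With a mean of 2.30 ± 0.733 (SD, n = 2), *lhy1* was the lowest member and lay above only 20.6% of the expressed genes, while *cca1*, at 10.4 ± 2.59 (SD, n = 2), lay above 69.8%.

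In order of mean mRNA FPKM, the genes were *gigantea1*, *gigantea2*, *toc1*, *elf3.2*, *cca1*, *elf3.1*, and *lhy1*. The neighbours *toc1* and *elf3.2*, *elf3.2* and *cca1*, and *cca1* and *elf3.1* had overlapping ranges over the 2 replicates, and their order is not resolved. The other neighbours were apart. By polysome FPKM, *gigantea1* was again first, with 33.8 and 38.1, but *gigantea2* stood behind both *toc1* and *elf3.2*. *toc1* had 12.9 and 14.1 polysome FPKM, *elf3.2* had 12.7 and 12.2, and *gigantea2* had 8.58 and 8.79. The values of *gigantea2* lay below both of those of *toc1* and *elf3.2* in polysome RNA and above both in mRNA, so that the order of these genes was inverted between the 2 kinds of RNA. *cca1* (7.22 and 5.81 polysome FPKM) and *elf3.1* (7.63 and 3.62) overlapped, and *lhy1* was last at 0.599 and 0.397.

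**Figure D1:**
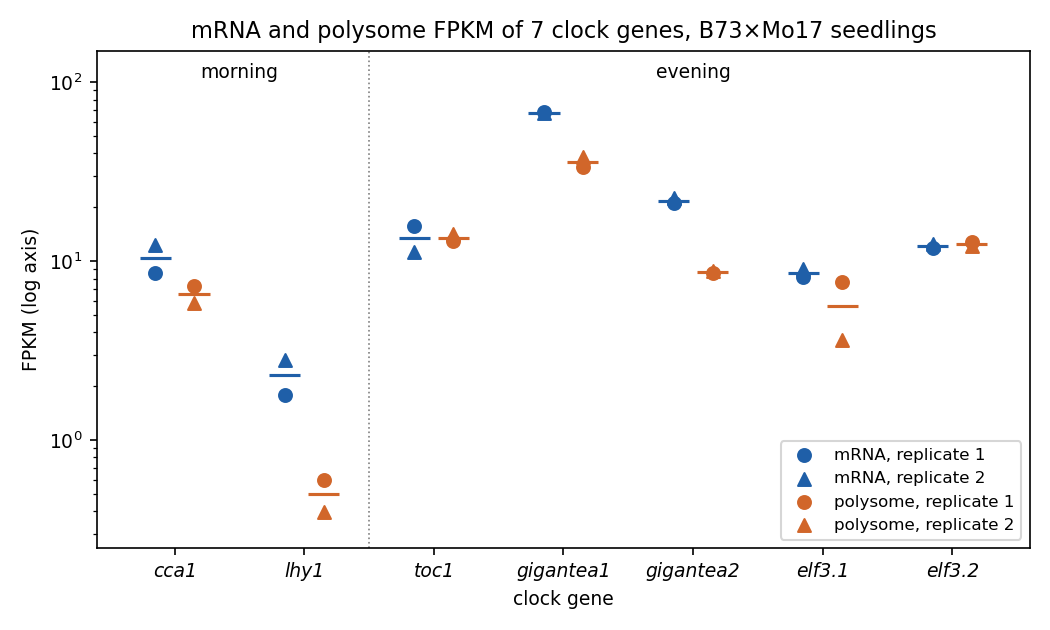
FPKM (log axis) of the 7 clock genes in the 2 mRNA (blue) and 2 polysome (orange) libraries, with circles for replicate 1, triangles for replicate 2, and bars for the mean. *gigantea1* is the highest in both kinds of RNA at a mean of 67.7 and 35.9 FPKM, and *lhy1* is the lowest at 2.30 and 0.498. The polysome values of 5 genes lie below both of their mRNA values, as in 45.5% of the 19518 entries whose FPKM averaged 1 or more.

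The replicates did not vary alike for all members. The morning genes were both higher in mRNA replicate 2 than in replicate 1, by 0.51 (*cca1*) and 0.63 (*lhy1*) on the log2(FPKM + 0.1) scale, whereas *toc1* was lower in it by 0.46. These differences were larger than those of 92.8% (*cca1*), 88.5% (*lhy1*), and 92.4% (*toc1*) of the expressed genes with a mean mRNA FPKM within a factor of 2 of theirs. In the polysome libraries the morning genes went the other way, with replicate 1 above replicate 2 by 0.31 (*cca1*) and 0.49 (*lhy1*), and *toc1* was higher in replicate 2 by 0.13. The *gigantea* genes were stable, with replicates that differed by 0.02 (*gigantea1*) and 0.09 (*gigantea2*) in mRNA and by 0.17 and 0.04 in polysome RNA. The least alike pair was that of *elf3.1* in polysome RNA, where replicate 1 exceeded replicate 2 by 1.06, which exceeded the replicate difference of 97.6% of the genes of like mRNA FPKM (within a factor of 2). The replicates of *elf3.2* differed by only 0.06 in polysome RNA.

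Most clock genes had a lower FPKM in polysome RNA than in mRNA. The ratio of mean polysome to mean mRNA FPKM, the translational efficiency, was lowest for *lhy1* at 0.217. It was 0.398 for *gigantea2*, 0.531 for *gigantea1*, 0.625 for *cca1*, and 0.652 for *elf3.1*. *toc1* and *elf3.2* were near unity, at 1.004 and 1.02. In 5 of the 7 genes both polysome values lay below both mRNA values, and in *toc1* and *elf3.2* the groups overlapped. Among all 19518 entries whose FPKM averaged 1 or more over the 4 libraries, both polysome values lay below both mRNA values in 45.5%.

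The difference was tested with limma on log2(FPKM + 0.1), with Benjamini–Hochberg adjustment over all 19518 entries, and a gene was called at an adjusted *P* below 0.01 together with a 1.5-fold difference. *lhy1*, *gigantea1*, and *gigantea2* were lower in polysome RNA, which is 3 of the 7 members, against 22.2% of all tested entries. None of the members was called higher, against 21.1% of all tested entries. The log2 difference was −1.99 for *lhy1* (standard error 0.34, adjusted *P*=0.00363 from limma), −1.32 for *gigantea2* (standard error 0.13, adjusted *P*=0.000543), and −0.92 for *gigantea1* (standard error 0.12, adjusted *P*=0.00150). The call of *lhy1* was lost without mRNA replicate 2, without either polysome replicate, and with no filter on low FPKM (adjusted *P* of 0.0157, 0.0117, 0.0191, and 0.0123 in limma), and that of *gigantea1* without either mRNA replicate (0.0117 and 0.0115), whereas *gigantea2* was called under every alternative tried. Because the polysome FPKM of *lhy1* was only a few times the 0.1 added to each value, its log2 difference depends on that constant, with −1.12 at an added 1 and −2.18 at an added 0.01. At an added 1, *gigantea2* was the lower of these 2 genes, at −1.24.

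The other 4 genes did not pass the thresholds. *cca1* had a difference of −0.66 (standard error 0.22, adjusted *P*=0.0419 in limma) and a 95% interval from −1.20 to −0.11. Its value was −0.40 without mRNA replicate 2 and −0.91 without mRNA replicate 1, with no call in either. For *elf3.1* it was −0.70 (standard error 0.34, adjusted *P*=0.119), with an interval from −1.54 to 0.14. This gene was called lower when polysome replicate 1 was left out, at −1.23 (adjusted *P*=0.00919 in limma), and its value was −0.17 without polysome replicate 2, so that 1 library decides it. The intervals of *toc1*, from −0.45 to 0.49, and of *elf3.2*, from −0.30 to 0.36, took in both small decreases and small increases.

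The median difference of all tested entries was −0.14, with quartiles of −0.87 and 0.72, and the median over the 7 members was −0.70. Relative to the median of all entries, *lhy1* was at −1.86, *gigantea2* at −1.18, *gigantea1* at −0.78, *elf3.1* at −0.56, and *cca1* at −0.52, whereas *elf3.2* and *toc1* were at 0.17 and 0.16. With each library centred on its own median, the same 3 genes were called. When ENSRNA entries were left out and the libraries rescaled to an equal sum, 6 of the 7 members were called lower, all but *toc1*, whose difference then was −0.64. Over all 19518 entries the split was 4124 higher and 4340 lower as deposited, and 5239 and 3350 with the centring. With the rescaling it was 1817 and 8786 of 19474 entries, around a median difference of −0.79, so that calls of lower rose among all entries as well. The direction for *toc1* and *elf3.2* thus depends on the scaling, since *elf3.2* then was at −0.63, and the direction of the other 5 does not. Input RNA was polyadenylated, and the methods name no such selection for polysome RNA. Its part in these differences was not tested.

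Set beside genes of like abundance, *lhy1* and *gigantea2* stood at the low end. The ratio of *lhy1* was above that of only 4.64% of 8108 expressed genes whose mRNA FPKM was within a factor of 2 of its own and whose median ratio was 0.746. *gigantea2* was above 12.3% of 4337 such genes, and *gigantea1* above 21.1% of 1410, where the median ratio was 1.31. *cca1* (32.4%) and *elf3.1* (35.4%) lay below the middle, and *toc1* (52.5%) and *elf3.2* (54.3%) lay at it.

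**Figure D2:**
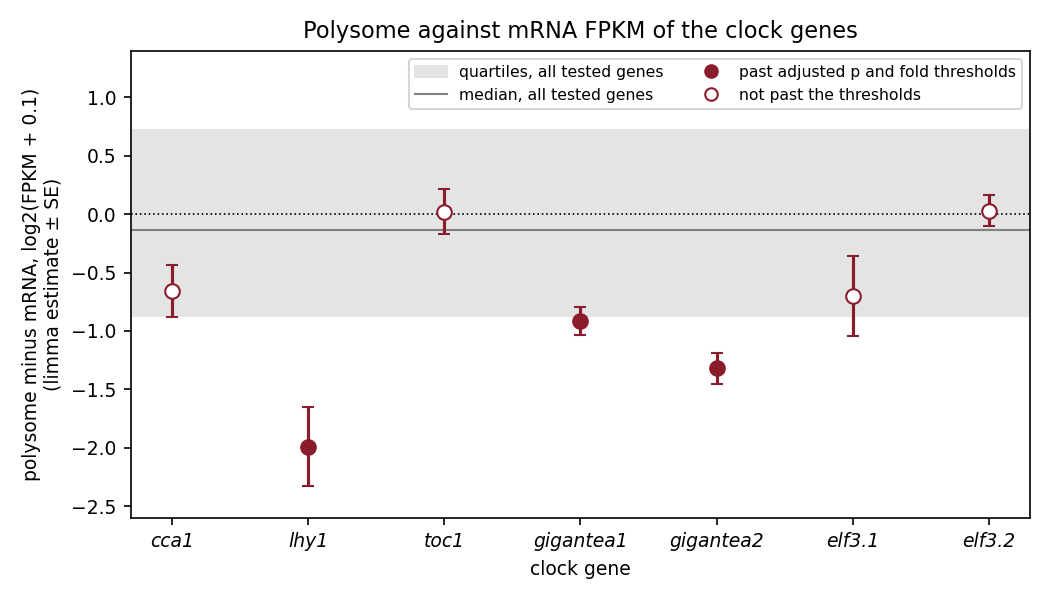
Difference between polysome and mRNA, log2(FPKM + 0.1), for each clock gene, as the limma estimate with its standard error (n = 2 libraries of each kind). Filled points were called at an adjusted *P* below 0.01 and 1.5-fold, and the grey line and band give the median (−0.14) and the quartiles of all 19518 tested entries. *lhy1*, *gigantea2*, and *gigantea1* are filled and lie below the lower quartile of −0.87, and *toc1* (0.02) and *elf3.2* (0.03) lie near 0.

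The duplicates were then compared within each library, where the scaling of the library cancels. In all 3 pairs compared, the ratios in the polysome libraries did not overlap those in the mRNA libraries, although 2 libraries against 2 cannot give an exact permutation *P* below 0.333, which was the two-sided value for each pair. How often other pairs of genes do the same was not analysed here, so the count is not a trait of these pairs. *gigantea1* exceeded *gigantea2* by 3.22-fold and 2.99-fold in the mRNA libraries and by 3.94-fold and 4.33-fold in the polysome libraries. The mean log2 ratio was 1.63 ± 0.08 (SD, n = 2) in mRNA and 2.03 ± 0.10 (SD, n = 2) in polysome RNA, a shift of 0.40. In FPKM of these libraries, the copy with more mRNA made up a larger part of the pair in polysome RNA than in mRNA. The part of reads shared between the copies in this was not tested.

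Of the *elf3* copies, *elf3.1* was the less abundant in both kinds of RNA. *elf3.1* was at 0.689 and 0.723 of the FPKM of *elf3.2* in mRNA and at 0.600 and 0.297 in polysome RNA. The mean log2 ratio was −0.50 ± 0.05 (SD, n = 2) in mRNA and −1.23 ± 0.70 (SD, n = 2) in polysome RNA. The wide spread in polysome RNA came from *elf3.1*, since *elf3.2* was steady, and with polysome replicate 1 alone the ratio was −0.73. The shift between the kinds of RNA, −0.73 in the means, was smaller than the difference between the polysome replicates (−0.73 and −1.73).

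*cca1* and *lhy1*, which encode related MYB-type factors, showed the widest separation. *cca1* exceeded *lhy1* by 4.83-fold and 4.35-fold in mRNA, and by 12.1-fold and 14.6-fold in polysome RNA. The mean log2 ratio was 2.15 ± 0.09 (SD, n = 2) in mRNA and 3.48 ± 0.13 (SD, n = 2) in polysome RNA. Although both genes differed between replicates by 0.31 to 0.63 on the log2 scale, their ratio varied little, because they moved in the same direction in each kind of library. The size of the shift between mRNA and polysome RNA, 1.33, depends on the value added to the low polysome FPKM of *lhy1*. With an added 1 in place of 0.1, the ratio was 1.79 in mRNA and 2.32 in polysome RNA, a shift of 0.53.

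The morning genes together were below the evening genes in every library. The mean log2(FPKM + 0.1) of *cca1* and *lhy1* was 2.02 and 2.59 in the mRNA libraries, and that of the 5 evening genes was 4.22 and 4.19. The difference, morning minus evening, was −2.21 and −1.60, a mean of −1.90 ± 0.43 (SD, n = 2). The spread came from the morning genes, since the evening mean varied by a SD of only 0.03. In the polysome libraries, the difference was −2.53 and −2.77, a mean of −2.65 ± 0.17 (SD, n = 2), which did not overlap with that in mRNA (two-sided exact permutation test, *P*=0.333, the smallest that 2 against 2 libraries can give). The separation of the phases was not uniform, since in mRNA *cca1* lay within the range of *elf3.1*, *elf3.2*, and *toc1*. In polysome RNA both values of *cca1* lay between those of *elf3.1*. Without the *elf3* genes, the difference was −2.46 in mRNA and −3.05 in polysome RNA. With the median over the genes in place of the mean, it was −1.515 in mRNA and −2.67 in polysome RNA. Since genes are not replicates of a phase and the harvest was a single time point, these values describe the 7 genes.

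**Figure D3:**
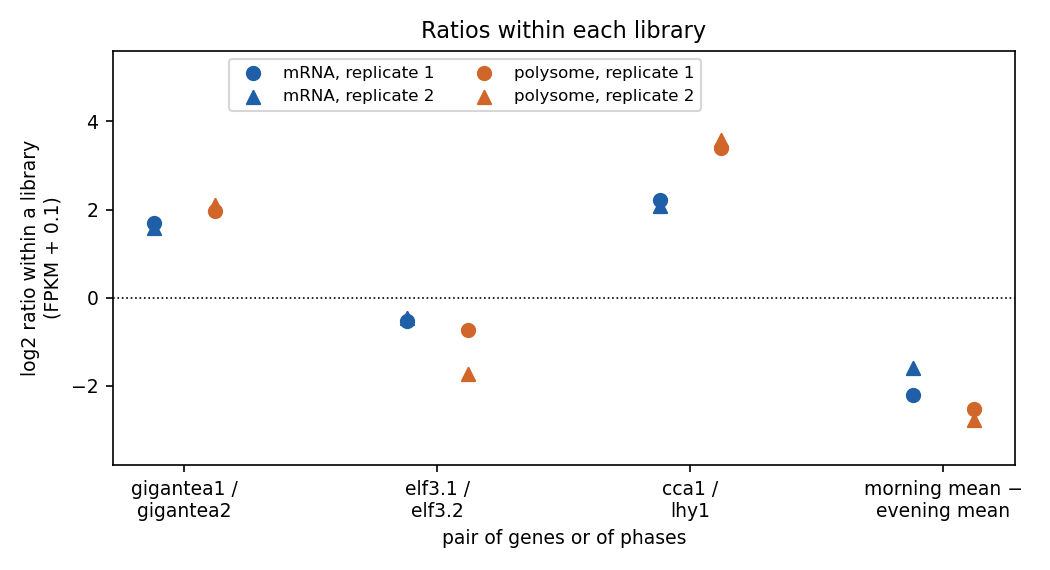
Log2 ratio of FPKM + 0.1 within each library for the 3 pairs of genes, and the mean of the morning genes minus the mean of the evening genes, in mRNA (blue) and polysome (orange) libraries, with circles for replicate 1 and triangles for replicate 2. In each column the 2 polysome values lie apart from the 2 mRNA values, with means of 2.03 and 1.63 for the *gigantea* pair and 3.48 and 2.15 for *cca1* over *lhy1*.

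m6A is deposited on mRNA mostly near the stop codon and in the 3′ untranslated region of plant transcripts, and has been linked to mRNA stability and translation. Peaks were called by the authors with MACS2 in each replicate against its input at *q*<0.01, and a peak of replicate 1 that overlapped one of replicate 2 by at least 1 bp was taken as a high-confidence peak. Such a peak lay in the span of 5 of the 7 clock genes, *cca1*, *lhy1*, *gigantea2*, *elf3.1*, and *elf3.2*, against 51.2% of all expressed genes. Among expressed genes within a factor of 2 of a member's mRNA FPKM, the share ranged from 43.4% (*gigantea1*) to 59.8% (*elf3.1*). *toc1* had a peak in replicate 2 only, and *gigantea1* had none in either replicate. The m6A level of a gene is the fold enrichment of immunoprecipitated over input signal at its highest high-confidence peak, averaged over the replicates, and had a median of 7.07 over the 10167 expressed genes with a peak. Because the input is the denominator, a fold enrichment depends on the coverage of the gene.

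The 2 *gigantea* copies differed in their peaks. *gigantea1*, the most abundant clock transcript, had no peak in its span or within 1500 bp of it, where 43.4% of the 1410 expressed genes within a factor of 2 of its mRNA FPKM had a high-confidence peak. *gigantea2* had 3, and 5.14% of the expressed genes with a peak had as many or more. Each overlapped a peak of the other replicate, and 2 of the 3 still counted when an overlap of 50% of both peaks was required. The one near the 3′ end (chromosome 3 from 8533071 to 8533181) had its summit 317 and 308 bp from the annotated 3′ end, with a fold enrichment of 3.16 in both replicates. The other peaks lay near the middle of the gene, at 38.8 and 40.4% of the span in replicate 1. The stronger of these (chromosome 3 from 8526503 to 8526933) had a fold enrichment of 4.63 and 5.89 and set the m6A level of *gigantea2*, 5.26 ± 0.895 (SD, n = 2). At 431 and 487 bp, it was also the widest peak of the clock genes. A gene span includes introns, and whether this peak lies in an exon was not analysed here.

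*lhy1* had the highest m6A level of the clock genes, 10.8 ± 1.05 (SD, n = 2), above 81.5% of the expressed genes with a peak. Against those of them within a factor of 2 of its mRNA FPKM it was above 66.7%, since such genes had a median level of 9.08. Its highest peak (chromosome 4 from 34104090 to 34104298) had its summit 155 and 191 bp from the 3′ end, with a fold enrichment of 10.02 and 11.5. A second high-confidence peak lay 30178 bp from the 3′ end, at 10.7% of the span, with a fold enrichment of 7.38 and 7.40. Replicate 2 called 7 peaks in this gene and replicate 1 called 2, and 4 of the 5 peaks seen only in replicate 2 lay between 8.59 and 17.6% of the span. The strongest of these had a fold enrichment of 9.83. Whether the peaks of *lhy1* far from the 3′ end lie in exons was not analysed here. Over the genome, replicate 2 had 30378 peaks and replicate 1 had 17371.

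*cca1* had 1 peak in each replicate (chromosome 10 from 77700188 to 77700388 in replicate 1), with the summit 90 and 112 bp from the 3′ end. Its fold enrichment was 9.82 in replicate 1 and 4.86 in replicate 2, so that its m6A level of 7.34 ± 3.51 (SD, n = 2) had the widest spread of the 5. Its higher value lay just below the lower one of *lhy1*. The FPKM of *cca1* in the input (mRNA) libraries was lower in replicate 1 (8.61) than in replicate 2 (12.3). Whether this has a part in the difference in enrichment was not tested.

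The *elf3* copies both had peaks at their 3′ ends, at lower levels. In *elf3.1* the peak (chromosome 3 from 222542854 to 222543066) had a fold enrichment of 4.67 in replicate 1. Replicate 2 divided this region into 2 peaks, with 5.90 and 3.39. In *elf3.2* the peak (chromosome 6 from 171181182 to 171181272) had a fold enrichment of only 2.36 and 3.49. Its m6A level, 2.92 ± 0.801 (SD, n = 2), was above that of only 5.32% of the expressed genes with a peak and of 3.30% of those within a factor of 2 of its mRNA FPKM. The −log10 *q* of this peak in replicate 1, 3.45, was the lowest of the high-confidence peaks of the clock genes, and *elf3.2* had none when a *q* of at most 1e-05 was required. *elf3.1*, at 5.28 ± 0.865 (SD, n = 2), exceeded *elf3.2* in both replicates. It was not counted when an overlap of 50% of both peaks was required, because its peak was split in replicate 2.

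A stronger peak lay past the annotated 3′ end of *elf3.1*, with a fold enrichment of 11.0 and 10.8 and a summit 1219 and 1207 bp downstream. It overlapped no annotated entry. It began 11 bp past the end of the neighbouring gene *Zm00001d044231*, on chromosome 3 from 222541223 to 222541468, which lies on the opposite strand, points toward *elf3.1*, and had an mRNA FPKM of 13.3 and 11.7. The peaks carry no strand, and to which of the 2 genes this one belongs cannot be told.

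**Figure D4:**
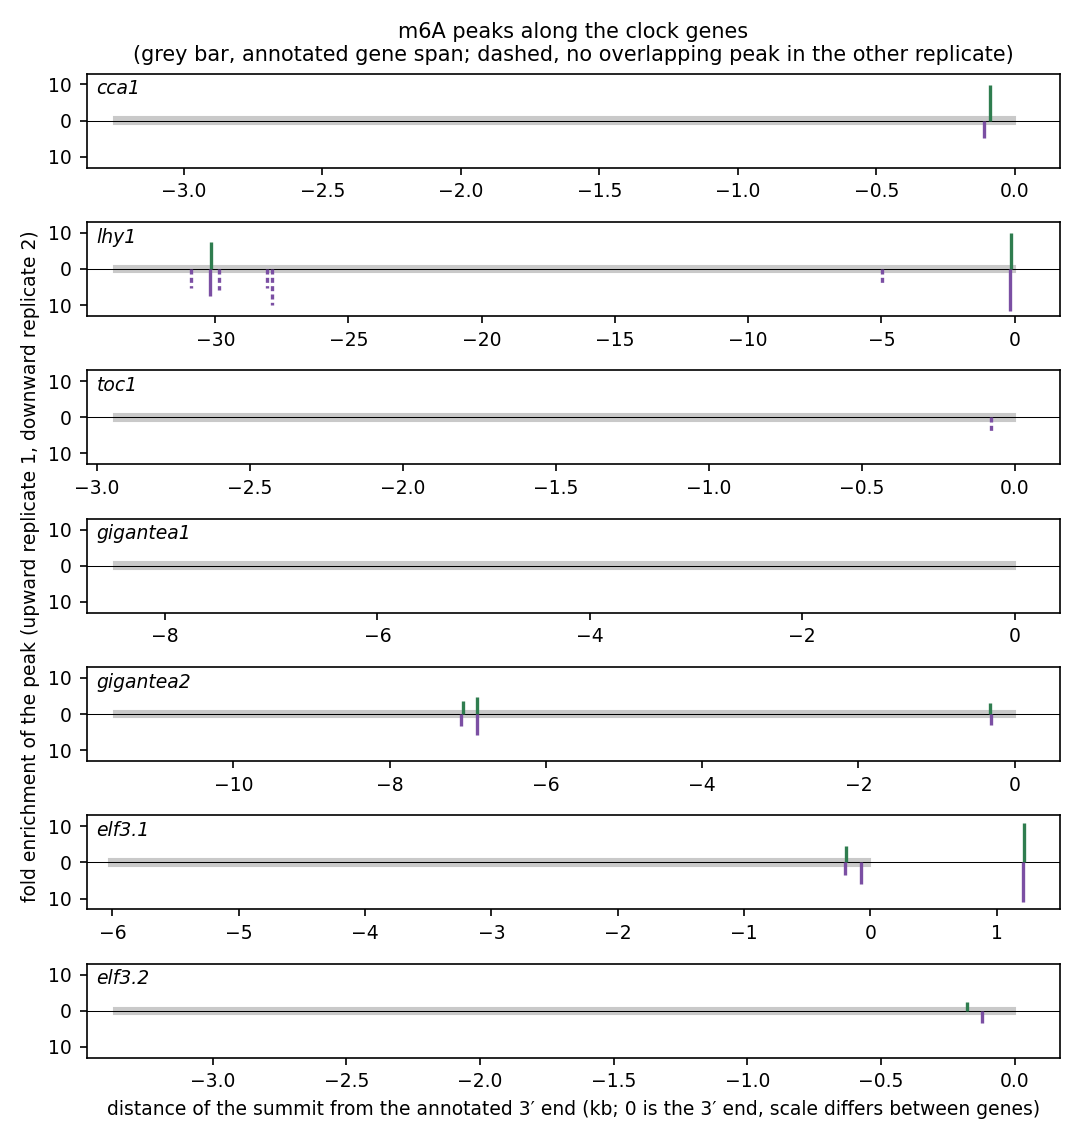
Summits of the m6A peaks along each clock gene, as the distance from the annotated 3′ end (kb), with the fold enrichment of replicate 1 upward (green) and of replicate 2 downward (purple). Dashed lines are peaks without an overlapping peak in the other replicate, the grey bar is the gene span, and the horizontal scale differs between genes. Peaks gather at the 3′ end of 6 genes, *lhy1* and *gigantea2* also have peaks far from it, and *gigantea1* has none.

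In each of the 5 genes, a high-confidence peak in the span had its summit within 317 bp of the annotated 3′ end in both replicates. The single peak of *toc1*, in replicate 2, was 77 bp from it, with a fold enrichment of 3.92. Among the morning genes, both had a level above the median of all expressed genes with a peak, although *cca1* was below it in replicate 2, and the 3 evening genes with a level were below it. Levels were not independent of abundance, with a median of 9.08 near the mRNA FPKM of *lhy1* and of 4.76 near that of *gigantea2*. Compared with genes that had a high-confidence peak and lay within a factor of 2 of their own mRNA FPKM, *gigantea2* was above 59.6%, *cca1* above 64.1%, and *elf3.1* above 28.9%. Over the 5 genes with a level, the lowest polysome to mRNA ratio (*lhy1*, 0.217) went with the highest m6A level, and the highest ratio (*elf3.2*, 1.02) with the lowest. Between them, *gigantea2*, *cca1*, and *elf3.1*, with ratios of 0.398, 0.625, and 0.652, had levels of 5.26, 7.34, and 5.28. In these means the level did not fall steadily as the ratio rose, but the order in the middle is not resolved. Over any pair of libraries, the ratio ranged from 0.474 to 0.839 for *cca1* and from 0.399 to 0.933 for *elf3.1*. In replicate 2, the level of *cca1* (4.86) was below those of *gigantea2* (5.89) and *elf3.1* (5.90). With so few genes these values are given as a description, and *gigantea1* had a ratio of 0.531 with no peak.

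**Figure D5:**
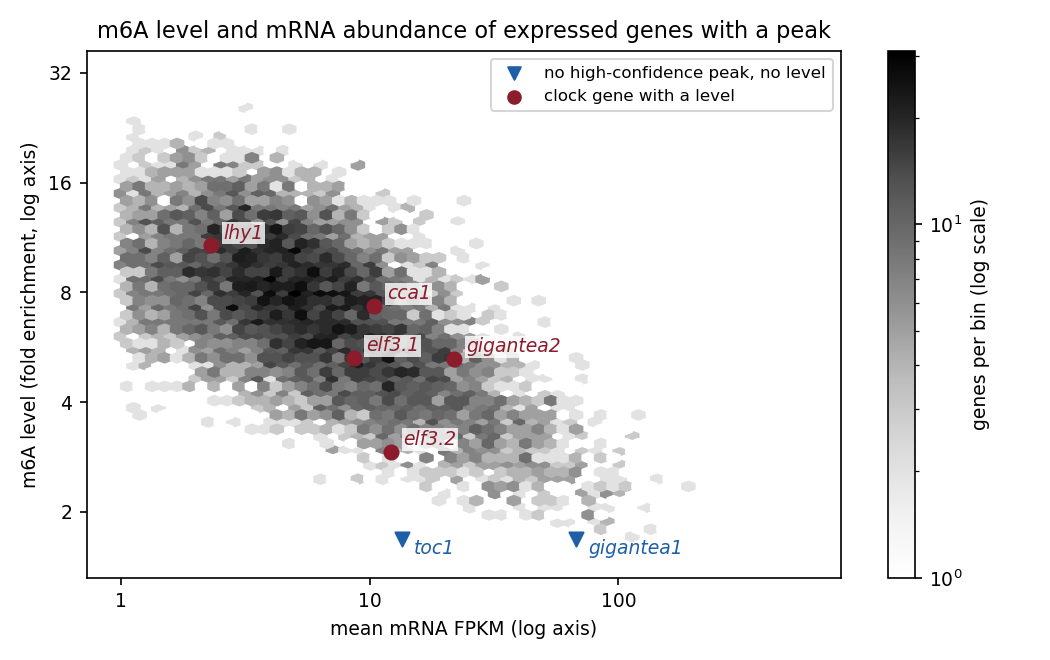
m6A level (fold enrichment, log axis) against mean mRNA FPKM (log axis) for the 10167 expressed genes with a high-confidence peak (grey bins), with the clock genes in red. *toc1* and *gigantea1* have no level and are drawn as blue triangles at the foot of the plot at their mRNA FPKM. *elf3.2*, at 2.92, lies at the lower edge of genes of like abundance, and *lhy1*, at 10.8, lies among them.

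The entries most like *gigantea1* and *lhy1*, the highest and the lowest member, were sought over the 4 FPKM libraries by Euclidean distance on the log2(FPKM + 0.1) scale. For *gigantea1* these were *Zm00001d013914*, at a distance of 0.07, and *Zm00001d028536*, at 0.12. For *lhy1* they were *Zm00001d010699*, at 0.24, and *Zm00001d042135*, at 0.27. A distance over 4 libraries of 1 time point mostly reflects like levels.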

How the data were processed

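Input RNA-seq, m6A-seq, and polysome profiling of hybrid seedlings were analysed, with 2 libraries each, grouped by sample title and the methods. The authors trimmed reads with Trimmomatic 0.35, mapped them to B73 AGPv4 with HISAT2 2.1.0, and deposited FPKM per gene from StringTie. Peaks were deposited per replicate from MACS2, with a fold enrichment, −log10 *p*-value and *q*-value, and a score that truncates 10 times the −log10 *q* to a whole number. FPKM hold no counts, and at best 42.9 to 60.0% of low values fell on whole steps (tolerance 0.05), so the depth is unknown and the spread between 2 replicates gives the precision.

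The 2 kinds of FPKM were tested against each other in limma 3.58.1 (R 4.3.3, eBayes with trend) on log2(FPKM + 0.1), over entries whose FPKM averaged 1 or more. The step was run on simulated data with the same spread for all genes and with shifts larger than any member's difference. That run therefore does not gauge the calls of the members. Other values were computed with Python 3.11.15, pandas 2.3.3, and scipy 1.17.1. Where the study names Xtail, which needs counts, limma was used. All 7 members are named, with the 2 entries nearest to the highest and to the lowest member. The members and lists were chosen with earlier results of these data known. Other clock genes, tissue markers, and sequences were not analysed here, since none of the 45578 identifiers matched the reference table. Alternatives covered the added value, the low-FPKM filter, scaling, the replicate block, peak overlap, *q*, the gene span, and each replicate left out.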

Additional observations from a re-analysis of the deposited data

How the results depend on the processing

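Of 175 values recomputed under alternatives, 142 were counted as kept. For polysome against mRNA differences this meant the same direction and side of the threshold, and for counts a value within 1.5-fold. For pair ratios, morning minus evening, and m6A levels it meant a move of less than the replicate SD. Leaving out 1 of 2 replicates always moves their mean by less than that SD. For these ratios and levels, the settings without 1 replicate therefore could not count as moved and are no evidence of stability. With ENSRNA entries left out and libraries rescaled, the log2 differences of *cca1* (−1.32), *elf3.1* (−1.36), and *elf3.2* (−0.63) were called lower, and *toc1* turned to −0.64. In that setting 6 members were called lower, and of all 19474 tested entries 8786 were called lower and 1817 higher. With no filter on low FPKM, *lhy1* (−1.99) was no longer called. Leaving out 1 replicate, the differences ranged from −2.31 to −1.67 for *lhy1*, −1.001 to −0.829 for *gigantea1*, −0.91 to −0.40 for *cca1*, −1.23 to −0.17 for *elf3.1*, −0.21 to 0.25 for *toc1*, and −0.00797 to 0.0693 for *elf3.2*, the members called lower from 1 (without mRNA replicate 2) to 3, and all calls from 1843 to 2864 lower and 2704 to 2893 higher. An added value of 1 in place of 0.1 gave log2 ratios of 1.93 for *gigantea1* over *gigantea2* in polysome RNA and of 1.79 (mRNA) and 2.32 (polysome) for *cca1* over *lhy1*, and one of 0.01 gave 3.70 for the latter. Morning minus evening was −2.01 in polysome RNA with an added 1, and −2.46 (mRNA) and −3.05 (polysome) without the *elf3* genes. As means over the peaks of a gene, the m6A levels were 9.08 (*lhy1*) and 3.94 (*gigantea2*). The cause of these shifts was not tested.

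Whether same-numbered mRNA and polysome libraries came from the same plants is not given in the sources used here. Their replicate deviations had a correlation of 0.0160 across entries, which does not decide this, and the main fit had no replicate block. With the replicate block, 3998 entries were called lower and 3888 higher, and the same 3 members were called (adjusted *P* of 0.00802 for *lhy1* in limma). The depth is unknown, so that low values such as those of *lhy1* and the absence of a peak in *gigantea1* have no counting limit. The members called lower numbered 3 in all settings but the rescaling, the setting without a filter, and 3 of the 4 with a replicate left out.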
